A study of Rattus norvegicus with 4 samples.

Results

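The proteasome genes of rat hippocampal neural progenitor cells were followed across 4 treatments. The proteasome is the barrel-shaped protease that degrades ubiquitin-tagged proteins in the cytosol and nucleus. Its members here are all probe sets whose single annotated gene symbol is Psma, Psmb, Psmc, Psmd, Psme, Psmf or Psmg followed by a number, which gave 58 of 31099 probe sets and 44 of 14217 named genes. The rule uses no measured value.

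Progenitor cells from the hippocampus of Fisher 344 rats, at early passage, were plated at 1000 cells per cm2 in N2 medium and treated for 4 days, and their RNA was measured on Affymetrix arrays. A first group received KHS101 at 5 uM, a synthetic compound named in connection with neuronal differentiation, and another received it at 1.7 uM. A further group received 1 uM retinoic acid together with forskolin, an activator of adenylyl cyclase whose concentration the labels do not give, and served as positive control (the retinoic acid mixture or retinoic acid array below). The study's design text names retinoic acid alone for it. The negative control was the solvent, 0.1% dimethyl sulfoxide (DMSO).

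Each group was 1 array, so there is no replicate spread and no test, and every difference describes these 4 arrays. Values are on the log2 scale, as deposited, and with 4 arrays the precision is limited by their number. In bulk RNA such as this, fewer cells of a type and less RNA per cell cannot be told apart. Levels of different genes are not compared, since each probe set responds differently. Of the 8 progenitor markers, 6 were named on the array: Nes, Sox2, Vim and Fabp7 were above log2 = 5 on every array, and Pax6 and Sox1 were below it on every array. Of the neuronal markers Tubb3, Map2 and Syt1 were above it on every array and Dcx, Rbfox3 and Snap25 below it. Of the astrocyte markers S100b and Slc1a3 were above it on every array and Gfap, Aqp4 and Aldh1l1 below it.

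A cylinder of alpha and beta rings forms the core particle, in which a few beta subunits cut proteins. A cap with a ring of ATPases, a base and a lid recognises ubiquitin, unfolds the substrate and feeds it in. Under interferon the catalytic beta subunits can be replaced by the immunoproteasome subunits Psmb8, Psmb9 and Psmb10, and other caps such as PA28 can take the place of the ATPase cap. The transcription factor NFE2L1 (also called NRF1) raises the subunit genes together through antioxidant response elements when proteasome activity is short. These roles are known mainly from yeast, mouse and human cells.

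Of the 44 genes, 43 lay above log2 = 5 on all 4 arrays, and Psmb8 did not. Values under log2 = 5 were raised to 5, the floor used here because low values mostly reflect background, and a gene counts as measured in a comparison if at least 1 of the 2 arrays is above it. Of the probe sets, 52 were above the floor on all 4 arrays, 5 on none and 1 on 1 array. A gene was represented by its probe set with the highest mean. The genes Psmb6 and Psme3 were not analysed here because their probe sets are annotated with several genes. Psma8 and Psmb11 had no probe set with a single symbol and were also not analysed here.

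The promoters that bear on the results are given first, as 300 bases from 250 before the start site to 50 after it, from RefSeq on rat build GRCr8. Psmb9 is shown as the gene furthest from DMSO, Psmb10 as an immunoproteasome gene near DMSO, Psme4 as the gene furthest above DMSO with KHS101, and Psmb5 as a standard catalytic gene near DMSO with KHS101. Capitals mark the antioxidant response element (TGACNNNGC), the CCAAT box (CCAAT) and the core of the interferon-stimulated response element (GAAA, any 2 bases, GAAA), each searched on both strands. The last of these was added after the values were seen.
Psmb9, chr20:4668750-4669049, plus strand: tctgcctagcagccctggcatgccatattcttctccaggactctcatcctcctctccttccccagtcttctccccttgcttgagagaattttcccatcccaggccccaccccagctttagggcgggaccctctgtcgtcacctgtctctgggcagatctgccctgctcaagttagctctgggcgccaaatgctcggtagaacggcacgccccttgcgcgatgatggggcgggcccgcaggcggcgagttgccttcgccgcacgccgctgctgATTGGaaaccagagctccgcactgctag
Psmb10, chr19:50743243-50743542, minus strand: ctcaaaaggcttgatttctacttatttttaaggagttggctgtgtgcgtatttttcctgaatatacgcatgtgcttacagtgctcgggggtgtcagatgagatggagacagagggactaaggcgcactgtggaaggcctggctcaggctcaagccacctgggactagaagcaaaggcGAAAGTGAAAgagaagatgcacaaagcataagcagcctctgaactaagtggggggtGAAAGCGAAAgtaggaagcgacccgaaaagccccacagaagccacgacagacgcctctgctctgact
Psme4, chr14:108706393-108706692, plus strand: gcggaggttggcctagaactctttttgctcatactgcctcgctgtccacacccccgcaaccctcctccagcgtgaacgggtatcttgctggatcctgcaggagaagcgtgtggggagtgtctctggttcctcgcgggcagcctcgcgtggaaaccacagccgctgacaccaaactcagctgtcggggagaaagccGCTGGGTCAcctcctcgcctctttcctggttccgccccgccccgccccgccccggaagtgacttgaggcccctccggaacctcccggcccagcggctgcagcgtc
Psmb5, chr15:32047330-32047629, minus strand: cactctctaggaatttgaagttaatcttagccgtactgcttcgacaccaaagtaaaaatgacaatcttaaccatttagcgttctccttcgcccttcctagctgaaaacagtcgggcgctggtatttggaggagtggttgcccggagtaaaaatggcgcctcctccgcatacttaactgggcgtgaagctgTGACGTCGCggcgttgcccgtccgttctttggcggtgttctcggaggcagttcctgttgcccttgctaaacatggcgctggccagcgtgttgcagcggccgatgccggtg
In these windows Psmb9 holds a CCAAT box, read on the opposite strand, just after the start site, Psmb10 holds 2 interferon elements, and Psme4 and Psmb5 hold 1 antioxidant response element each.

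Against DMSO the proteasome genes differed little with KHS101. At 5 uM, 1 of 43 measured proteasome genes, Psmb9, differed from DMSO by 2-fold or more, while 14.3% of all measured genes did. It was lower, where 8.1% of all measured genes were lower by that much. At 1.5-fold the count was again 1 of 43, against 30.7% of all measured genes and 22.4% of genes with a mean of log2 = 10 or more, a range that holds 39 of the proteasome genes. The median log2 difference was -0.097 for the proteasome genes and 0.0011 for all measured genes, and the interquartile range was 0.20 and 0.72. At 1.7 uM, 0 of 44 proteasome genes passed 1.5-fold, against 21.1% of all measured genes, or 2-fold, against 8.63%. Among genes with a mean of log2 = 10 or more 14.4% passed 1.5-fold at 1.7 uM and 5.26% passed 2-fold. The median was -0.16 for the proteasome genes and -0.0096 for all measured genes. The 3 comparisons with DMSO share the DMSO array, so a value that stood off on it would enter each of them.

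With retinoic acid and forskolin the proteasome genes were lower in small steps. Of 43 measured, 40 were below DMSO, against 52.5% of all measured genes and 57.3% of genes with a mean of log2 = 10 or more. The median log2 difference was -0.20, against -0.026 for all measured genes. At 1.5-fold 4 were lower (Psmb9, Psmg2, Psmg4 and Psmd3) and 0 were higher, where 12.2% of all measured genes were lower. At 2-fold the count was 0, against 7.49% of all measured genes. With KHS101 the share below DMSO was 31 of 43 at 5 uM, against 49.8% of all measured genes, and 33 of 44 at 1.7 uM, against 51.0%.

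**Figure D1:**
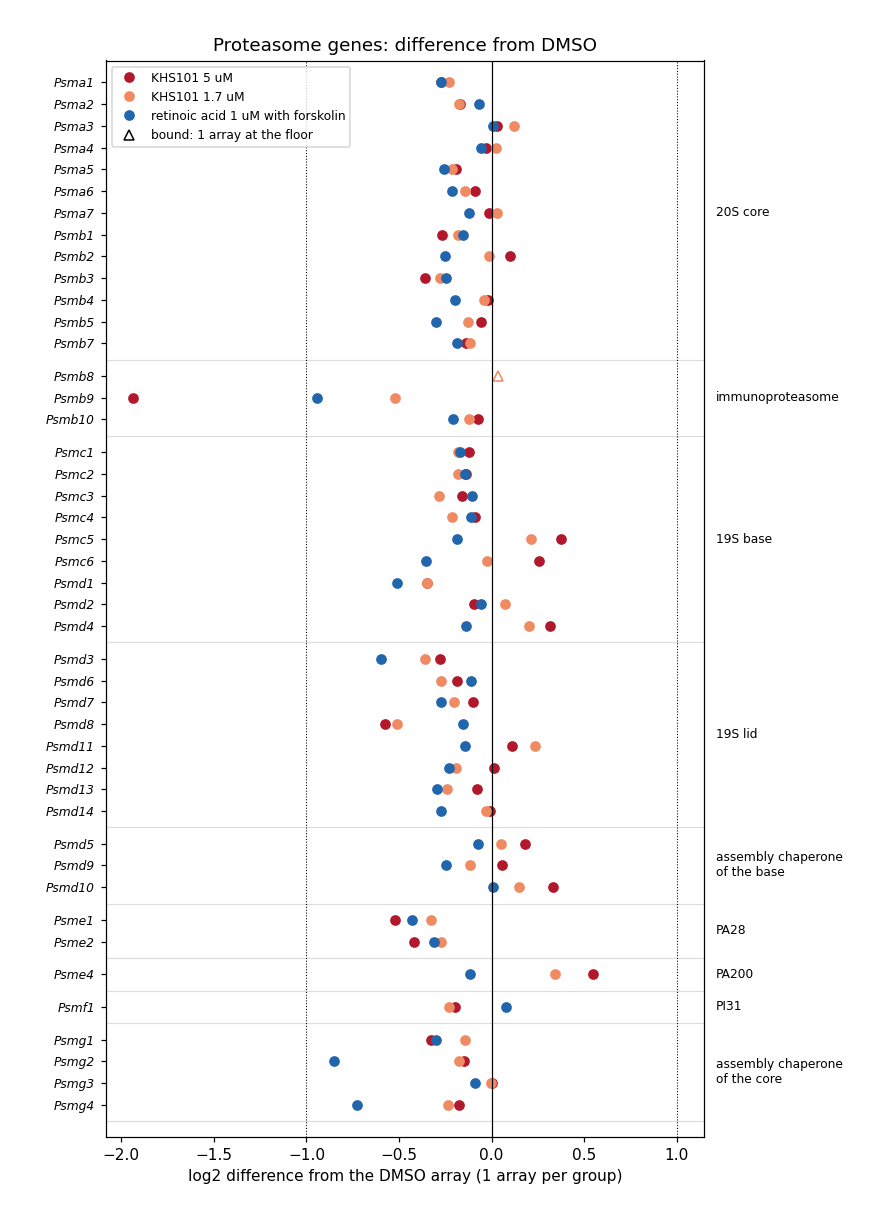
Log2 difference from the DMSO array for each proteasome gene, by part of the complex (1 array per group; dotted lines mark 2-fold; a triangle is a bound). The points lie within 2-fold of DMSO apart from Psmb9 with KHS101 at 5 uM (-1.94), and the points of retinoic acid with forskolin lie mostly left of 0.

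The 1 measure of error in these data is the disagreement between probe sets of the same gene, which covers probe noise and not the spread between cultures. Its pooled SD on the log2 difference, over 2211 to 2231 genes represented by at least 2 measured probe sets, was 0.26 for KHS101 at 5 uM, 0.21 at 1.7 uM and 0.23 for retinoic acid with forskolin, each against DMSO. Among the 483 of these genes with a mean of log2 = 10 or more it was 0.16 at 5 uM, 0.12 at 1.7 uM and 0.15 with the retinoic acid mixture, and the wider SD over all genes is used below. Within 1 such SD of DMSO lay 29 of 43 proteasome genes at 5 uM, against 39.9% of all measured genes. At 1.7 uM 26 of 44 did, against 41.3%, and with retinoic acid and forskolin 24 of 43, against 41.3%. Beyond it, 4 were higher and 10 lower at 5 uM, 3 and 15 at 1.7 uM, and 0 and 19 with retinoic acid and forskolin. These counts depend on the wider SD, while 39 of the proteasome genes have a mean of log2 = 10 or more. At 1.7 uM the median of the proteasome genes, -0.16, was itself beyond the narrower SD of 0.12. With the retinoic acid mixture the median, -0.20, was beyond 0.15. Fewer genes therefore lie within the narrower SD.

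**Figure D2:**
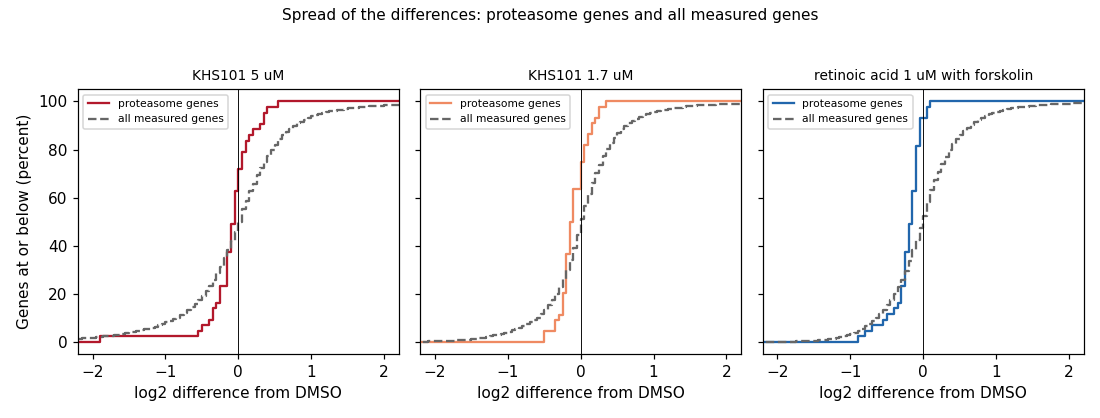
Cumulative percent of genes at or below each log2 difference from DMSO, for proteasome genes (solid) and all measured genes (dashed), 1 panel per treatment. The proteasome curve is steeper in each panel, and with retinoic acid and forskolin it reaches 93.0% at 0.

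In the core particle, the alpha ring forms the gate through which substrates enter. Psma1 had log2 values of 12.99 on the 5 uM KHS101 array, 13.03 on the 1.7 uM array, 12.99 on the retinoic acid and forskolin array and 13.26 on the DMSO array. It had the largest difference downward of the 7 alpha genes in each comparison with DMSO, on the log2 scale -0.27 at 5 uM, -0.23 at 1.7 uM and -0.27 with the retinoic acid mixture. Psma3 was at the upper end, with 10.50 on the 5 uM KHS101 array, 10.59 on the 1.7 uM array, 10.48 on the retinoic acid and forskolin array and 10.47 on the DMSO array. The 4 arrays of Psma3 spanned less than the disagreement between probe sets over all genes. The median difference of the alpha ring was -0.091 at 5 uM, -0.14 at 1.7 uM and -0.12 with the retinoic acid mixture.

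Of the standard beta subunits, Psmb5 carries the chymotrypsin-like and Psmb7 the trypsin-like activity. Psmb5 had log2 values of 12.75 on the 5 uM KHS101 array, 12.68 on the 1.7 uM array, 12.50 on the retinoic acid and forskolin array and 12.80 on the DMSO array, a difference from DMSO of -0.055 at 5 uM, -0.13 at 1.7 uM and -0.30 with the retinoic acid mixture. Psmb7 had 13.13 on the 5 uM KHS101 array, 13.15 on the 1.7 uM array, 13.08 on the retinoic acid and forskolin array and 13.27 on the DMSO array. For both genes DMSO was the highest array. Psmb3, a structural subunit, was the furthest below DMSO of the standard beta genes with KHS101 (-0.36 at 5 uM and -0.28 at 1.7 uM). Psmb2, also structural, was the furthest above it at 5 uM, with 12.67 on the 5 uM KHS101 array, 12.56 on the 1.7 uM array, 12.33 on the retinoic acid and forskolin array and 12.58 on the DMSO array. Psmb1 had the smallest difference of the measured beta genes with retinoic acid and forskolin, -0.15. Over the 13 standard core genes the log2 differences ran from -0.36 to 0.097 at 5 uM, from -0.28 to 0.12 at 1.7 uM and from -0.30 to 0.0067 with retinoic acid and forskolin.

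Psmb9, the immunoproteasome subunit that takes the place of Psmb6, stood off from the rest. Its log2 values were 7.11 on the 5 uM KHS101 array, 8.53 on the 1.7 uM array, 8.10 on the retinoic acid and forskolin array and 9.05 on the DMSO array. DMSO was the highest array, 5 uM KHS101 the lowest, and the other two lay between them. The gene was 3.83-fold lower at 5 uM, 1.44-fold lower at 1.7 uM and 1.92-fold lower with retinoic acid and forskolin, each against DMSO. Between the KHS101 arrays it was 2.67-fold lower at 5 uM, where 1.73% of all measured genes were lower by 2-fold or more. It is represented by 1 probe set, so no second probe set repeats this measurement.

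Psmb10, the immunoproteasome subunit that takes the place of Psmb7, had log2 values of 10.25 on the 5 uM KHS101 array, 10.20 on the 1.7 uM array, 10.12 on the retinoic acid and forskolin array and 10.32 on the DMSO array. Its differences from DMSO were -0.075 at 5 uM, -0.124 at 1.7 uM and -0.21 with the retinoic acid mixture. All lay within the disagreement between probe sets over all genes. Those at 1.7 uM and with the mixture lay beyond that of genes with a mean of log2 = 10 or more (0.116 and 0.15). Psmb8, which takes the place of Psmb5, had 4.80 on the 5 uM KHS101 array, 5.03 on the 1.7 uM array, 3.18 on the retinoic acid and forskolin array and 4.05 on the DMSO array. The KHS101 1.7 uM array alone was above the floor, so its difference from DMSO there is a bound of 0.034 and the other comparisons with DMSO were not measured.

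**Figure D3:**
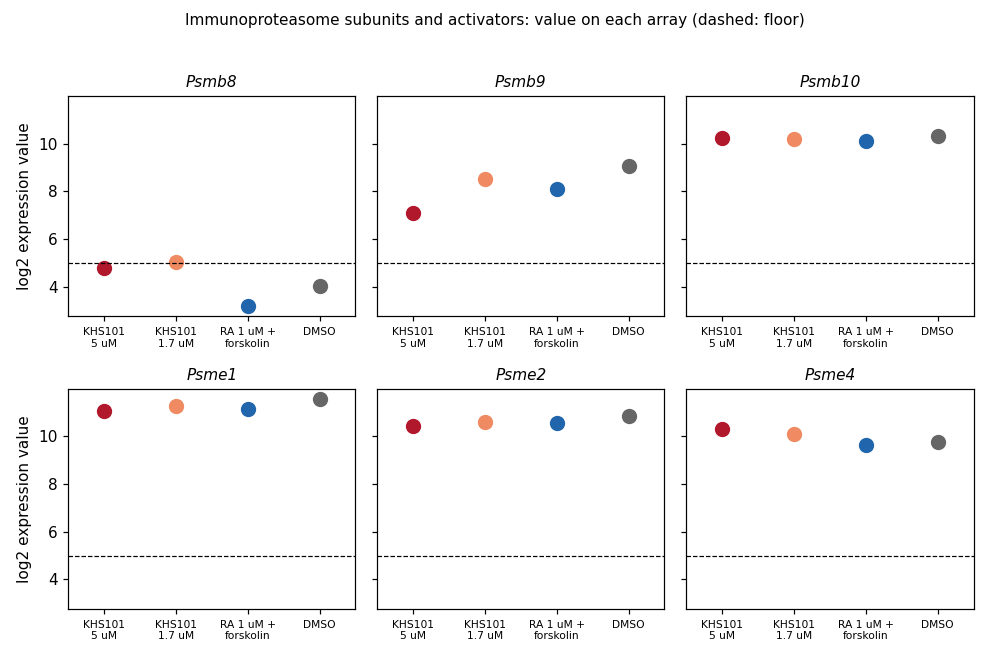
Log2 expression value of Psmb8, Psmb9, Psmb10, Psme1, Psme2 and Psme4 on each of the 4 arrays (dashed line: floor at log2 = 5; 1 point is 1 array). Psmb9 spans from 7.11 with KHS101 at 5 uM to 9.05 in DMSO, while Psmb10 stays between 10.12 and 10.32.

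Microglia and macrophages carry immunoproteasome subunits, and their markers were examined beside Psmb9. All 7 markers on the list (Aif1, Cx3cr1, Csf1r, Cd68, Itgam, Ptprc and Tyrobp) were at the floor on all 4 arrays. The log2 of their summed level was 5.01 on the 5 uM KHS101 array, 4.96 on the 1.7 uM array, 5.02 on the retinoic acid array and 5.00 on the DMSO array. Oligodendrocyte lineage markers were above the floor in 6 of 6 cases on every array, and the log2 of their summed level was 14.59 on the 5 uM KHS101 array, 15.15 on the 1.7 uM array, 16.15 on the retinoic acid array and 15.75 on the DMSO array. The log2 summed level of the progenitor markers was 15.27 on the 5 uM KHS101 array, 15.70 on the 1.7 uM array, 15.92 on the retinoic acid array and 16.04 on the DMSO array. The 5 uM array was the lowest for both sums and for Psmb9, and DMSO was the highest for the progenitor sum and for Psmb9. The orders differed elsewhere. The oligodendrocyte sum was highest on the retinoic acid array, where Psmb9 was below DMSO. The progenitor sum was higher on the retinoic acid array than on the 1.7 uM array, and Psmb9 was lower. That order of the sum rests on Fabp7 (1.7 uM minus retinoic acid, -1.71 on the log2 scale). The other 3 measured progenitor markers were lower on the retinoic acid array than at 1.7 uM, as Psmb9 was. Single progenitor markers went both ways, with Fabp7 at -2.11 and Nes at 0.52 on the log2 scale at 5 uM against DMSO. The part of either cell type in the level of Psmb9 was not tested.

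Interferon and antigen presentation genes were set beside the immunoproteasome, since interferon signalling drives both. Of 20 listed genes 17 were named on the array and 9 were measured in each comparison with DMSO. At 5 uM 2 were higher by 2-fold or more (Irf9 and Ifit2) and 1, Mx2, was lower, where 6.16% and 8.1% of all measured genes were. At 1.7 uM Ifit2 was higher and Mx2 lower, against 4.36% and 4.27% of all measured genes. With retinoic acid and forskolin Irf9 was higher, against 4.34%. Irf9 was close to the floor on the DMSO array (5.21) and the 1.7 uM array (5.27), and its other probe set was at the floor. B2m, also on the list, was above DMSO at 5 uM by 0.58 on the log2 scale, and by 1.14 at its second probe set. The median of the list was 0.012 at 5 uM, 0.051 at 1.7 uM and -0.013 with the retinoic acid mixture.

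Irf1, a transcription factor that drives immunoproteasome genes in human and mouse cells, had log2 values of 7.79 on the 5 uM KHS101 array, 7.54 on the 1.7 uM array, 7.79 on the retinoic acid and forskolin array and 8.25 on the DMSO array. It was lower than DMSO on each treated array, by 1.37-fold at 5 uM, 1.63-fold at 1.7 uM and 1.38-fold with the retinoic acid mixture, and its lowest array was KHS101 at 1.7 uM, not 5 uM as for Psmb9. Tap1, a peptide transporter encoded next to Psmb9, had 5.29 on the 5 uM KHS101 array, 5.31 on the 1.7 uM array, 5.27 on the retinoic acid and forskolin array and 5.28 on the DMSO array, close to the floor and nearly level. Mx2, an interferon-inducible GTPase, had 4.49 on the 5 uM KHS101 array, 4.78 on the 1.7 uM array, 8.25 on the retinoic acid and forskolin array and 7.87 on the DMSO array. It was at the floor on both KHS101 arrays, at least 7.33-fold lower than in DMSO, and was 1.30-fold higher with retinoic acid and forskolin. Ifit2, another interferon-inducible gene, had 10.88 on the 5 uM KHS101 array, 10.75 on the 1.7 uM array, 9.36 on the retinoic acid and forskolin array and 9.56 on the DMSO array, higher on both KHS101 arrays. Of the listed genes Tap2, Nlrc5, Ifit1, Ifit3, Isg15, Mx1, Gbp2 and RT1-CE5 were at the floor on all 4 arrays.

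The activators lay on both sides of DMSO with KHS101. Psme1 and Psme2 form the PA28 ring, which opens the core to peptides and is induced by interferon. Psme1 had log2 values of 11.06 on the 5 uM KHS101 array, 11.25 on the 1.7 uM array, 11.15 on the retinoic acid and forskolin array and 11.58 on the DMSO array. Psme2 had 10.43 on the 5 uM KHS101 array, 10.58 on the 1.7 uM array, 10.54 on the retinoic acid and forskolin array and 10.85 on the DMSO array. For both genes DMSO was the highest array and KHS101 at 5 uM the lowest, 1.43-fold lower for Psme1 and 1.34-fold lower for Psme2. At 1.7 uM Psme1 was 1.25-fold and Psme2 1.21-fold lower than DMSO. With retinoic acid and forskolin Psme1 was 1.35-fold and Psme2 1.24-fold lower.

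Psme4 encodes PA200, a large single-chain cap linked to histone degradation. Its log2 values were 10.30 on the 5 uM KHS101 array, 10.09 on the 1.7 uM array, 9.64 on the retinoic acid and forskolin array and 9.75 on the DMSO array. It was the highest of the proteasome genes relative to DMSO at both KHS101 concentrations, 1.46-fold at 5 uM and 1.27-fold at 1.7 uM. Its other 2 probe sets differed by 0.36 and 0.41 on the log2 scale at 5 uM and by 0.29 and 0.13 at 1.7 uM, in the same direction. With retinoic acid and forskolin its 3 probe sets gave -0.11, 0.19 and -0.32, with no common sign. Psmf1, the inhibitor PI31, had 10.51 on the 5 uM KHS101 array, 10.48 on the 1.7 uM array, 10.79 on the retinoic acid and forskolin array and 10.71 on the DMSO array, lower on both KHS101 arrays and slightly higher with retinoic acid and forskolin.

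The ATPases Psmc1 to Psmc6 form the ring that unfolds substrates. Psmc5 was the highest with KHS101, with log2 values of 12.57 on the 5 uM KHS101 array, 12.41 on the 1.7 uM array, 12.01 on the retinoic acid and forskolin array and 12.20 on the DMSO array. Both KHS101 arrays lay above DMSO, by 1.29-fold at 5 uM and 1.16-fold at 1.7 uM, and retinoic acid with forskolin lay below it. Psmc3 was the lowest with KHS101, with 12.72 on the 5 uM KHS101 array, 12.59 on the 1.7 uM array, 12.77 on the retinoic acid and forskolin array and 12.88 on the DMSO array. Psmc6 had 12.52 on the 5 uM KHS101 array, 12.23 on the 1.7 uM array, 11.91 on the retinoic acid and forskolin array and 12.26 on the DMSO array, the largest difference of the 6 with retinoic acid and forskolin (-0.35). The difference of Psmc6 at 5 uM, 0.25, was not seen at all 3 of its probe sets, of which the lowest gave -0.022. All 6 ATPase genes were below DMSO with retinoic acid and forskolin, 4 at 5 uM and 5 at 1.7 uM.

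Among the other base subunits, Psmd4 is a ubiquitin receptor and Psmd1 and Psmd2 are scaffolds. Psmd4 had log2 values of 12.39 on the 5 uM KHS101 array, 12.27 on the 1.7 uM array, 11.94 on the retinoic acid and forskolin array and 12.07 on the DMSO array, above DMSO on both KHS101 arrays. Psmd1 had 11.64 on the 5 uM KHS101 array, 11.64 on the 1.7 uM array, 11.47 on the retinoic acid and forskolin array and 11.99 on the DMSO array, with DMSO the highest array. Psmd2 had 12.41 on the 5 uM KHS101 array, 12.58 on the 1.7 uM array, 12.45 on the retinoic acid and forskolin array and 12.50 on the DMSO array, within the disagreement between probe sets in each comparison with DMSO. In the lid, Psmd8 had 11.56 on the 5 uM KHS101 array, 11.62 on the 1.7 uM array, 11.98 on the retinoic acid and forskolin array and 12.13 on the DMSO array. It was 1.49-fold lower at 5 uM and 1.42-fold lower at 1.7 uM, the largest difference downward of the non-ATPase genes with KHS101.

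Psmd3, a lid subunit, had the largest difference of the non-ATPase genes with retinoic acid and forskolin. Its log2 values were 11.12 on the 5 uM KHS101 array, 11.04 on the 1.7 uM array, 10.80 on the retinoic acid and forskolin array and 11.40 on the DMSO array, and the retinoic acid array was 1.51-fold below DMSO. Psmd11, the lid subunit known to raise proteasome assembly in human pluripotent stem cells, had 12.04 on the 5 uM KHS101 array, 12.17 on the 1.7 uM array, 11.79 on the retinoic acid and forskolin array and 11.93 on the DMSO array. It was the highest lid gene with KHS101. Psmd14, the deubiquitinase of the lid, had 13.32 on the 5 uM KHS101 array, 13.30 on the 1.7 uM array, 13.05 on the retinoic acid and forskolin array and 13.33 on the DMSO array, and its 3 probe sets gave -0.0084, 0.055 and -0.29 at 5 uM. The remaining lid genes (Psmd6, Psmd7, Psmd12 and Psmd13) lay between -0.19 and 0.014 of DMSO on the log2 scale at 5 uM.

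Chaperones that build the base, Psmd5, Psmd9 and Psmd10, are named among the non-ATPases but are not part of the finished particle. Psmd10, also called gankyrin, had log2 values of 10.85 on the 5 uM KHS101 array, 10.67 on the 1.7 uM array, 10.52 on the retinoic acid and forskolin array and 10.52 on the DMSO array, 1.26-fold higher at 5 uM. Psmd5 had 11.77 on the 5 uM KHS101 array, 11.65 on the 1.7 uM array, 11.52 on the retinoic acid and forskolin array and 11.59 on the DMSO array. Psmd9 had 10.69 on the 5 uM KHS101 array, 10.52 on the 1.7 uM array, 10.39 on the retinoic acid and forskolin array and 10.64 on the DMSO array, and its second probe set gave -0.35 against DMSO at 5 uM, where this one gave 0.055. Against retinoic acid with forskolin the probe sets of Psmd9 gave 0.30 and -0.30 at 5 uM. All 3 were above DMSO at 5 uM by the probe sets chosen, 2 at 1.7 uM and 1 with the retinoic acid mixture.

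The chaperones of the core, Psmg1 to Psmg4, pair to build the alpha ring. With retinoic acid and forskolin they held the largest differences outside Psmb9. Psmg2 had log2 values of 9.51 on the 5 uM KHS101 array, 9.48 on the 1.7 uM array, 8.81 on the retinoic acid and forskolin array and 9.66 on the DMSO array, 1.80-fold lower than DMSO. Psmg4 had 10.68 on the 5 uM KHS101 array, 10.62 on the 1.7 uM array, 10.13 on the retinoic acid and forskolin array and 10.86 on the DMSO array, 1.66-fold lower. On each of these genes the retinoic acid array was the lowest and the KHS101 arrays lay closer to DMSO. Psmg4 at 1.7 uM (-0.24 on the log2 scale) was still beyond the disagreement between probe sets (0.21). With retinoic acid and forskolin their partners were closer to DMSO. Psmg1, which pairs with Psmg2, had 11.21 on the 5 uM KHS101 array, 11.39 on the 1.7 uM array, 11.23 on the retinoic acid and forskolin array and 11.53 on the DMSO array. Its lowest array was KHS101 at 5 uM, where it differed from DMSO by -0.33, further than Psmg2 (-0.15). Psmg3, which pairs with Psmg4, had 9.51 on the 5 uM KHS101 array, 9.50 on the 1.7 uM array, 9.42 on the retinoic acid and forskolin array and 9.51 on the DMSO array. Each of the 4 is represented by 1 probe set.

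Between the KHS101 concentrations the steps of the proteasome genes were small, apart from Psmb9. Of 44 measured, 42 differed by less than the disagreement between probe sets (0.21 on the log2 scale), against 54.4% of all measured genes. Psmb9 was beyond it downward and Psmc6 upward (0.28), though the other probe sets of Psmc6 gave 0.12 and 0.023. At 1.5-fold the count was 1, Psmb9, against 9.89% of all measured genes. Among genes with a mean of log2 = 10 or more the share was 4.4%, so 1 of 44 is not far from it. By the probe sets chosen, 28 of 44 proteasome genes were higher at 5 uM than at 1.7 uM, against 48.8% of all measured genes. These held 6 of 6 ATPase genes (by 0.044 to 0.28), 3 of 3 chaperones of the base, 6 of 8 lid genes and 6 of 13 standard core genes. Psme1 and Psme2 were lower. The sign differed between probe sets for Psmd9 (0.17 and -0.081), Psmd11 (-0.13 and 0.050) and Psmd14 (-0.084 to 0.11). Apart from Psmc6 the steps in these parts were smaller than 0.21. Among genes with a mean of log2 = 10 or more the disagreement between probe sets was 0.12. Further steps lay beyond that narrower measure, such as Psmd12 (0.20) and Psmd10 (0.19) upward and Psme1 (-0.19) and Psmd2 (-0.17) downward.

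**Figure D4:**
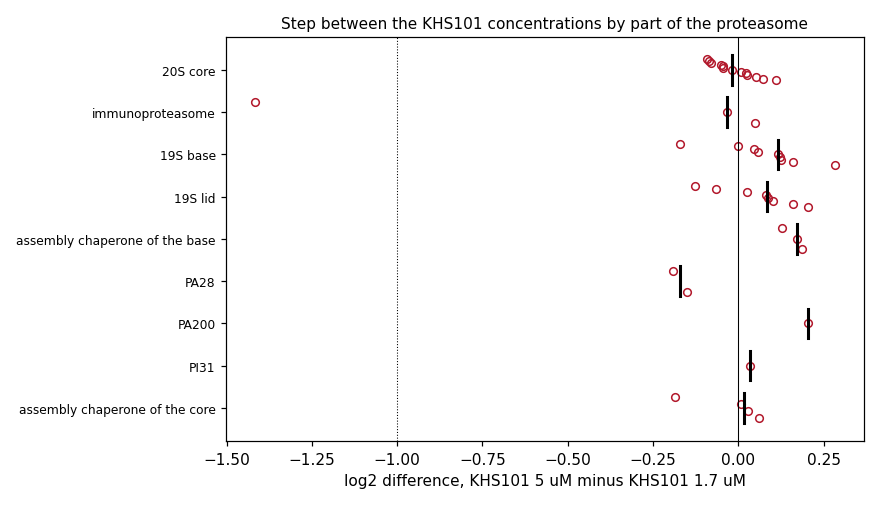
Log2 difference between the KHS101 arrays (5 uM minus 1.7 uM) for each measured proteasome gene, by part of the complex (1 circle is 1 gene; the bar is the median; the dotted line marks 2-fold lower). Psmb9 lies at -1.42, and the other genes lie between -0.19 and 0.28.

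KHS101 was also set against retinoic acid with forskolin, without use of the DMSO array. Both concentrations are then compared with the same retinoic acid array, so a value that stood off on it would enter both. At 5 uM 30 of 43 proteasome genes were above retinoic acid with forskolin, against 49.9% of all measured genes, and at 1.7 uM 34 of 44, against 50.2%. The median difference was 0.11 at 5 uM and 0.094 at 1.7 uM. By 1.5-fold or more, Psmg2, Psme4 and Psmc6 were higher at 5 uM and Psmb9 was lower, against 18.7% and 20.0% of all measured genes. Not every probe set passed: the other probe sets of Psmc6 gave 0.24 and 0.29 on the log2 scale against 0.61 for the one used, and 1 of 3 for Psme4 gave 0.17. At 1.7 uM Psmg2 was higher (1.59-fold), against 13.8% of all measured genes and 11.4% of those with a mean of log2 = 10 or more. By 2-fold 0 proteasome genes differed in either comparison, against 19.2% and 11.3%, with Psmb9 just inside at 1.99-fold lower for 5 uM.

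The list of transcription factors of proteasome genes included genes well above DMSO with KHS101. It also holds Ddi2, Ngly1 and Keap1, which are not transcription factors. Of the 13 listed genes measured at 5 uM, 3 were higher by 2-fold or more (Nfe2l1, Nfe2l2 and Mafg) and 0 were lower. Of all measured genes 6.16% were higher by as much. At 1.7 uM it was 2 of 12 (Nfe2l1 and Nfe2l2), against 4.36%. With retinoic acid and forskolin it was 0 of 12, against 4.34%. The median of the list was 0.057 at 5 uM, -0.031 at 1.7 uM and 0.065 with the retinoic acid mixture. Nfe2l1 had log2 values of 8.07 on the 5 uM KHS101 array, 7.66 on the 1.7 uM array, 6.68 on the retinoic acid and forskolin array and 6.53 on the DMSO array. It was 2.91-fold higher at 5 uM and 2.18-fold higher at 1.7 uM, and its other 2 probe sets differed by 1.71 and 0.93 on the log2 scale at 5 uM and by 0.78 and 0.47 at 1.7 uM, the second of each pair a bound.

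Nfe2l2 encodes NRF2, which binds the same elements as NFE2L1. It had log2 values of 11.42 on the 5 uM KHS101 array, 10.25 on the 1.7 uM array, 9.18 on the retinoic acid and forskolin array and 9.03 on the DMSO array, 5.24-fold higher at 5 uM and 2.32-fold higher at 1.7 uM. Mafg, the small partner that both factors need to bind DNA, had 9.83 on the 5 uM KHS101 array, 9.16 on the 1.7 uM array, 7.64 on the retinoic acid and forskolin array and 8.38 on the DMSO array. It was 2.74-fold higher at 5 uM and 1.67-fold lower with retinoic acid and forskolin. Ddi2, the protease that releases active NFE2L1, was 1.41-fold higher at 5 uM and 1.53-fold at 1.7 uM, with 7.61 on the 5 uM KHS101 array, 7.72 on the 1.7 uM array, 6.96 on the retinoic acid and forskolin array and 7.11 on the DMSO array. Ngly1, which removes sugars from NFE2L1 to activate it, had 9.03 on the 5 uM KHS101 array, 8.84 on the 1.7 uM array, 9.69 on the retinoic acid and forskolin array and 9.08 on the DMSO array, near DMSO with KHS101 and 1.53-fold higher with retinoic acid and forskolin. Nfya, a subunit of the factor that binds CCAAT boxes, was 1.57-fold lower with retinoic acid and forskolin.

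The antioxidant response element letters TGACNNNGC were found in 7 of 40 member promoters, or 17.5%, against 12.2% of 27456 promoters and 14.8% of those of measured genes. The genes were Psma3, Psmb2, Psmb5, Psmd1, Psmd3, Psmd9 and Psme4. At 5 uM the median log2 difference from DMSO was 0.03 for these 7 (from -0.35 to 0.54) and -0.13 for the 32 measured members without the letters. The gap is smaller than the disagreement between probe sets (0.26). The sign of the first median also depends on Psmd9, at 0.055 by the probe set used and -0.35 by its second, which would turn the median negative. Whether the letters bear on the differences was not tested. With and without the letters the medians were -0.12 and -0.18 at 1.7 uM, and -0.25 and -0.19 with retinoic acid and forskolin. The CCAAT box was in 20 of the 40, or 50.0%, against 37.7% of all promoters, and in Psmb2 it shares 1 base with the antioxidant element. The interferon element core was in 7 of the 40, or 17.5%, against 3.77% of all promoters: Psma4, Psmb3, Psmb8, Psmb10, Psmd7, Psme2 and Psmg4. Psmb9 does not hold these letters in its window. A match is a description of letters and not of a bound factor, and the promoters of Psma7, Psmd6, Psmd12 and Psmd14 were not analysed here.

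Genes that work beside the proteasome were counted in the same way. Of 13 measured partners, 1 was higher by 2-fold or more at 5 uM (Zfand2a), 0 at 1.7 uM and 0 with the retinoic acid mixture, and 0 were lower. Of all measured genes 6.16%, 4.36% and 4.34% were higher by as much in those comparisons, so 1 of 13 is near the background. Zfand2a, a stress-induced protein also called AIRAP that binds the cap, had log2 values of 9.63 on the 5 uM KHS101 array, 8.70 on the 1.7 uM array, 8.47 on the retinoic acid and forskolin array and 8.34 on the DMSO array, 2.45-fold higher at 5 uM. Zfand5, a zinc finger protein that binds the particle, had 12.81 on the 5 uM KHS101 array, 12.64 on the 1.7 uM array, 12.32 on the retinoic acid and forskolin array and 12.07 on the DMSO array, 1.67-fold higher at 5 uM and 1.49-fold at 1.7 uM. Pomp, the maturation factor of the core, had 13.29 on the 5 uM KHS101 array, 13.36 on the 1.7 uM array, 13.36 on the retinoic acid and forskolin array and 13.49 on the DMSO array. Adrm1 and Sem1, cap subunits outside the naming scheme, had differences of 0.03 and -0.53 at 5 uM. Ubr4, a ubiquitin ligase, was 1.56-fold higher with retinoic acid and forskolin by its brightest probe set, and a second differed by 0.026 on the log2 scale.

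Among 15 measured genes of ubiquitin supply and delivery, 1 was higher by 2-fold or more in each comparison with DMSO (Sqstm1) and 0 were lower. This too is near the share of all measured genes that were higher, 6.16% at 5 uM, 4.36% at 1.7 uM and 4.34% with the retinoic acid mixture. Sqstm1, the autophagy receptor p62, had log2 values of 13.00 on the 5 uM KHS101 array, 12.63 on the 1.7 uM array, 12.64 on the retinoic acid and forskolin array and 11.58 on the DMSO array. Its second measured probe set differed by 1.05 at 5 uM, 0.52 at 1.7 uM and 0.40 with the retinoic acid mixture, so it passed 2-fold at 5 uM only. Faf1, which binds ubiquitin and the segregase VCP, had 10.06 on the 5 uM KHS101 array, 9.64 on the 1.7 uM array, 8.64 on the retinoic acid and forskolin array and 9.14 on the DMSO array, 1.89-fold higher at 5 uM. Vcp itself had 13.09 on the 5 uM KHS101 array, 13.18 on the 1.7 uM array, 13.16 on the retinoic acid and forskolin array and 13.10 on the DMSO array, nearly level on all 4 arrays. Ubqln4, a shuttle of ubiquitinated proteins, was 1.78-fold lower with retinoic acid and forskolin. Of 12 listed reference genes 9 were named (Hprt1, Tbp, Ywhaz, Rpl13a, Rplp0, Sdha, Pgk1, Gusb and B2m), and their median differences from DMSO were -0.028 at 5 uM, 0.019 at 1.7 uM and 0.052 with the retinoic acid mixture. Single reference genes lay further off on both sides, such as Gusb at -0.67 and B2m at 0.58 at 5 uM and Hprt1 at -0.84 with retinoic acid and forskolin.

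**Figure D5:**
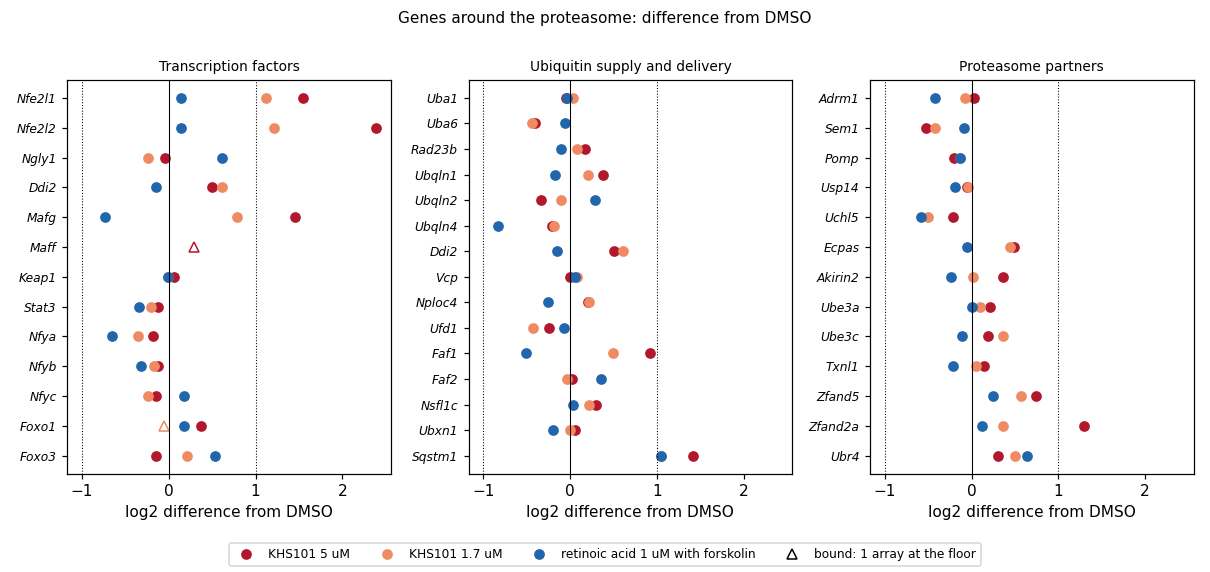
Log2 difference from the DMSO array for the transcription factors of proteasome genes, genes of ubiquitin supply and delivery, and proteasome partners (1 array per group; dotted lines mark 2-fold; a triangle is a bound). The transcription factor list also holds Ddi2, Ngly1 and Keap1, which are not transcription factors. Nfe2l1, Nfe2l2 and Mafg lie right of the 2-fold line with KHS101 at 5 uM (1.54, 2.39 and 1.46). Most points of the partner panels lie within it.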

How the data were processed

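The deposited values are on the log2 scale, and the submitters' processing notes name GCRMA, which corrects background by probe base content, normalizes arrays to each other and summarises probes, and R 2.6.2. GCRMA pulls dim probe sets towards a low level, so low values carry little information. Scanner files were not used here. Probe sets were named from the platform annotation, and only those with 1 gene symbol were kept. Values under log2 = 5 were raised to 5, each gene was represented by its brightest probe set (by mean over arrays), and differences were subtractions of log2 values. With 1 array per group no test was possible and no p-value is given; counts past a fold threshold over the proteasome genes and the gene lists stand beside the share of all measured genes past it. The step was run on simulated data with shifts past 2-fold and noise below the disagreement between probe sets. That checks the calculation only and says nothing about the spread between cultures. Genes were named by rule: the largest and smallest difference in each class and comparison with DMSO, every member past 1.5-fold, the catalytic, activator and chaperone genes, and partners past 1.5-fold. The members and lists were chosen with earlier results of these data known. RefSeq promoters (GRCr8) were searched for motifs, and protein sequences were not used here. Alternatives changed the floor, the probe set, the scaling and the fold threshold. Python 3.11.15, pandas 2.3.3, numpy 2.4.6 and matplotlib 3.10.9 were used.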

Additional observations from a re-analysis of the deposited data

How the results depend on the processing

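The median difference of the proteasome genes ranged over 10 alternatives from -0.12 to -0.084 with KHS101 at 5 uM, from -0.18 to -0.13 at 1.7 uM and from -0.21 to -0.17 with the retinoic acid mixture, each against DMSO, and Psmb9 at 5 uM ranged over 8 alternatives from -1.94 to -1.89. Psmb8 at 1.7 uM, a bound of 0.034 against DMSO, was 0.98 with no floor and with the floor at log2 = 4. With no floor 1 proteasome gene (Psmb8) was higher by 2-fold at 5 uM against the retinoic acid mixture and 1 at 1.7 uM, where with the floor at 4 it was also 1. With the floor at 6, 0 interferon genes passed 2-fold with the retinoic acid mixture. With the median of a gene's probe sets, Psme4 at 1.7 uM was 0.13, and 0 ubiquitin genes passed at 1.7 uM, 0 with the retinoic acid mixture, and 1 transcription factor at 1.7 uM. With every probe set counted, Psme4 holds 3 of 5 activator probe sets, and the activator median changed sign: against DMSO it was 0.36 at 5 uM (by gene -0.42) and 0.13 at 1.7 uM (by gene -0.27), between the concentrations 0.0695 (by gene -0.15), and at 5 uM against the retinoic acid mixture 0.17 (by gene -0.09). Under that setting the ATPase median at 1.7 uM against the mixture was 0.059 (by gene -0.023). The beta ring median between the concentrations (-0.018) was just above 0 with the floor at 6 and with quantile normalization. Counting every probe set, at 5 uM 2 ubiquitin, 5 transcription factor and 5 interferon probe sets passed. At 1.5-fold, 4 proteasome genes were lower with the retinoic acid mixture against DMSO, 3 were higher and 1 lower at 5 uM against that mixture, and 1 was higher at 1.7 uM. Past 1.5-fold were also 2 partners at 5 uM and 1 with the retinoic acid mixture. So were 2 ubiquitin genes in each comparison with DMSO. On the transcription factor list 4 genes passed at 1.7 uM and 3 with the mixture. Ddi2, which is on both lists, is counted in each at 1.7 uM, and Ngly1 is among the 3 with the mixture. At 3-fold 0 partners and 0 ubiquitin genes passed, 1 transcription factor at 5 uM and 0 at 1.7 uM, 1 interferon gene at each KHS101 concentration and 0 with the mixture, and 0 proteasome genes were lower at 5 uM than at 1.7 uM. Without Psmb9, and among genes with a mean of log2 = 10 or more, 0 proteasome genes were lower by 2-fold at 5 uM against DMSO or against 1.7 uM; both settings were chosen after the data were seen. The other 349 counts stayed within 1.5 times those reported, and the other 564 values moved by less than the disagreement between probe sets. That allowance is wide for the medians, many of which are smaller than it. A median could change sign within it, so this says little about small medians. Fewer genes, fewer probe sets or another threshold enter by construction, and no other cause was tested. No paired analysis was possible because each group has 1 array. With 1 array per group the spread between cultures is unknown, probe sets at the floor give bounds, and most genes have 1 probe set.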
